A study of Mus musculus with 9 samples.

Results

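The genes described here are 40 cell cycle and DNA replication genes, chosen by name as the table entries whose symbol is on a fixed list, and all 40 were found among the 23466 genes counted. They fall into 15 genes of S phase, when DNA is copied, and 25 genes of G2 and mitosis, when the cell divides. They were measured by RNA sequencing in group 2 innate lymphoid cells (ILC2), tissue-resident lymphocytes that respond to alarm cytokines with type 2 cytokines, from wild-type C57/Bl6 mice of 10 weeks. The growth protocol names the strain C57BL/6J. One group came from the brain meninges of uninjured mice, one from the brain meninges of mice 24 h after an 80 kdyn contusion of the spinal cord, and one from the lungs of uninjured mice, with 3 libraries in each. The series text says that 5 mice were pooled per group and that the cells were sorted as CD45+, DAPI-, lineage-negative, St2+ and Thy1+. Whether a group had 1 pool or several is not stated, and the p-values below therefore measure only the spread between libraries, which may be technical. No operated group without contusion is labelled, so contusion and surgery cannot be told apart, and both comparisons below use the same uninjured meninges libraries.

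A dividing cell first licenses and copies its DNA with the MCM helicase, the sliding clamp PCNA and the enzymes that make deoxynucleotides, under the control of E2F factors and cyclin E. It then condenses and separates its chromosomes with cyclin A and B bound to CDK1, the Aurora and Polo kinases, spindle motors and the anaphase-promoting complex. Resting cells repress most of these genes through RB-family proteins, with E2F sites common in promoters of S phase genes and CCAAT boxes and cell cycle homology elements common in promoters of mitotic genes. Resident ILC2 are known as largely quiescent cells that can proliferate when stimulated.

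Promoter sequences describe the S phase and mitotic groups by something other than their counts. RefSeq promoter windows of the GRCm38.p6 build, cut to the 250 bases before the annotated start, were available for 33 of the 40 members, 13 of S phase and 20 of mitosis. Coordinates are used for these windows only, since the counts were made on another build, mm9. Both strands were searched for CCAAT, for the cell cycle homology cores TTTGAA and TTCGAA, and for the E2F cores TTTCCCGC, TTTGGCGC, TTTCGCGC, TTCCCGCC and TTTGCCGC, and matches are in capitals, overlapping matches running together. Mcm6, a helicase subunit, is shown because its window holds the most E2F matches of the members, Mki67 and Top2a because they hold several mitotic elements without an E2F match, and Cdk1 because it holds all 3 kinds and was the least abundant member. The windows are on the minus strand, at chr1:128359706-128359955 for Mcm6, chr7:135716380-135716629 for Mki67, chr11:99024190-99024439 for Top2a and chr10:69352913-69353162 for Cdk1, and are printed 5′ to 3′ as the gene is read.
Mcm6: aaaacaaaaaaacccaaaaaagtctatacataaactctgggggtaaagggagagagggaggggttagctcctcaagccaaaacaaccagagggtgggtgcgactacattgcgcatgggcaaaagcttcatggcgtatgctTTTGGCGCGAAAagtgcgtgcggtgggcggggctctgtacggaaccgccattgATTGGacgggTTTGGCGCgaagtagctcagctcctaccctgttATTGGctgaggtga
Mki67: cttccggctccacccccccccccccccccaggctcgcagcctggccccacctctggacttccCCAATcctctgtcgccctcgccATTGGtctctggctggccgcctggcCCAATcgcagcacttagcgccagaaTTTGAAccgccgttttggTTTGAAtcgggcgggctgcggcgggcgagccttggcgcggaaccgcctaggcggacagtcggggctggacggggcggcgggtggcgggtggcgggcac
Top2a: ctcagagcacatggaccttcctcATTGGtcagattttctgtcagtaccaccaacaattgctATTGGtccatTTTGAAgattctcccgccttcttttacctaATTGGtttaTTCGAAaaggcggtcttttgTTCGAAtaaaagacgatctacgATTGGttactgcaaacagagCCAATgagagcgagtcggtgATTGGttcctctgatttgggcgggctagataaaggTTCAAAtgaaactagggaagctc
Cdk1: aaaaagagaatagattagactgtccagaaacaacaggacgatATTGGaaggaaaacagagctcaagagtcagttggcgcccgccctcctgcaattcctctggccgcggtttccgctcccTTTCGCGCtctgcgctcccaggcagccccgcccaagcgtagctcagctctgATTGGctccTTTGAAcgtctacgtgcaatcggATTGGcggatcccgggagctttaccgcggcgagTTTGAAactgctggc
In Mcm6 the E2F matches begin 110, 106 and 47 bases before the start, and the first 2 of them overlap. Top2a holds 6 CCAAT matches and 4 homology matches. In Cdk1 the homology matches begin 71 and 15 bases before the start and the E2F match 131 bases before it. An E2F core was found in the windows of 5 of 13 S phase members (38.5%) and 1 of 20 mitotic members (5.0%), against 3.73% of all 27025 genes with a window. A homology core was found for 2 S phase members (15.4%) and 9 mitotic members (45.0%), against 19.6% of all genes. CCAAT was found for 8 S phase members (61.5%) and 17 mitotic members (85.0%), against 37.5% of all genes. These matches describe letters in a window, not bound sites. Windows were not found for 7 members, Mcm4, Ccne2, Ccna2, Aurkb, Kif20a, Tpx2 and Stmn1.

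**Figure D1:**
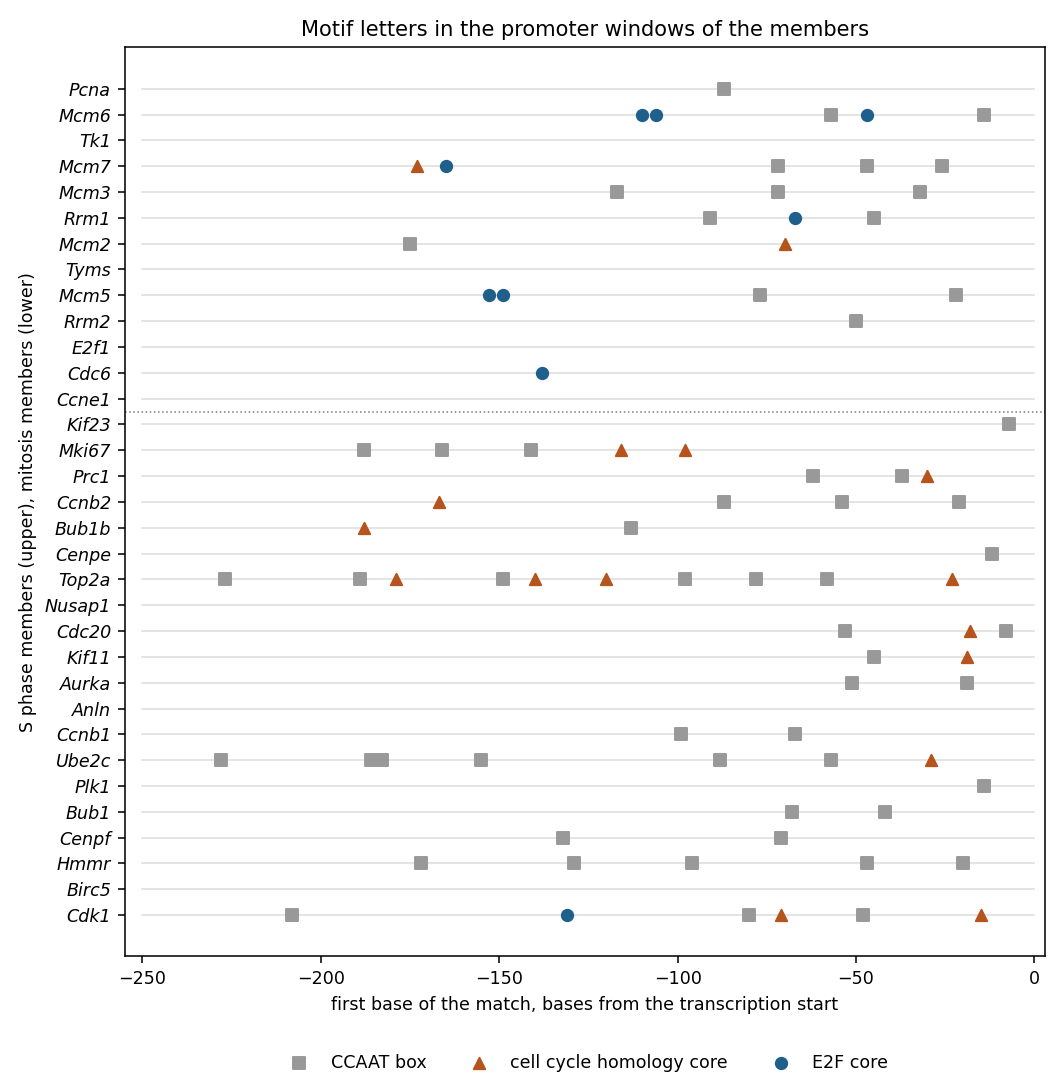
Positions of motif letters in the promoter windows of 33 members. The horizontal axis gives bases from the transcription start to the first base of each match, each line is a gene, and marker shape gives the motif; where a gene has several windows, their matches share its line. E2F cores lie mostly in the upper block (5 of 13 S phase members against 1 of 20 mitotic members), and homology cores mostly in the lower (2 of 13 against 9 of 20).

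Counts are reads assigned to a gene, summing to between 13407277 and 18253462 per library, and levels are given as CPM, counts scaled to a library of 1000000, after adjustment with edgeR's TMM factors. A count of 3 is worth 0.163 to 0.239 CPM, and at or below 3 counts a gene is treated as not measured. The second injured meninges library stands apart: it held 13465 detected genes against 15761 to 18452 in the others, and the lowest median rank correlation with its own group (0.797 against 0.825 to 0.873). Defining genes of the sorted cells were present in every library, with the St2 gene Il1rl1 at 1852 to 2694 CPM and Gata3, the lineage factor of ILC2, at 495 to 646 CPM. The sort marker Thy1 was also present in every library, at 279, 167 and 229 CPM in the uninjured meninges, 92.5, 60.1 and 51.4 CPM after injury and 153, 166 and 138 CPM in lung. Thy1 fell after injury (log2 fold change -1.73, SE 0.29, edgeR adjusted p = 0.0218), the 1 gene that edgeR called of the 8 gate and lineage genes. Of these 8, DESeq2 called 1 higher and 1 lower, and limma voom 2 higher and 1 lower. The shares called over all genes were 0.192%, 2.86% and 0.218% by edgeR, DESeq2 and limma voom. The bearing of these changes on the levels of the members was not tested. Because these are bulk libraries, fewer dividing cells and less RNA per dividing cell cannot be told apart.

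S phase members were present at moderate levels, and mitotic members were lower and were detected in some libraries and not in others. Per kilobase of exon, averaged over the 9 libraries, the median level was 2.52 CPM per kb for the S phase members and 0.389 CPM per kb for the mitotic members, against 3.96 CPM per kb for all 15117 genes tested. On that scale 12 of 15 S phase members (80.0%) and 6 of 25 mitotic members (24.0%) exceeded 1 CPM per kb, against 80.5% of all genes tested. Both counts were the same without the second injured meninges library. All genes tested had passed a filter on low counts, as had 12 of the 15 S phase and 19 of the 25 mitotic members. The member medians and shares include those that did not pass, so the sets compared are unlike. The members over 1 CPM per kb were all among those that passed. By group the medians were 2.26, 2.12 and 2.13 CPM per kb for S phase and 0.335, 0.341 and 0.331 CPM per kb for mitosis, in uninjured meninges, injured meninges and lung.

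Pcna stood highest at 16.4 CPM per kb, followed by Mcm4 at 10.9, Mcm6 at 9.20, Tk1 at 5.48, Mcm7 at 4.22 and Mcm3 at 3.78 CPM per kb. The first mitotic member in that order was Kif23, a motor of the central spindle, at 2.83 CPM per kb, and the next was Mki67, which coats mitotic chromosomes, at 1.72 CPM per kb. At the other end stood Cdk1 at 0.00840, Birc5 (survivin) at 0.0210 and Hmmr at 0.0227 CPM per kb. Neighbours in this order overlapped in their library values. Exon lengths came from a newer annotation than the counts, so the scale is approximate.

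**Figure D2:**
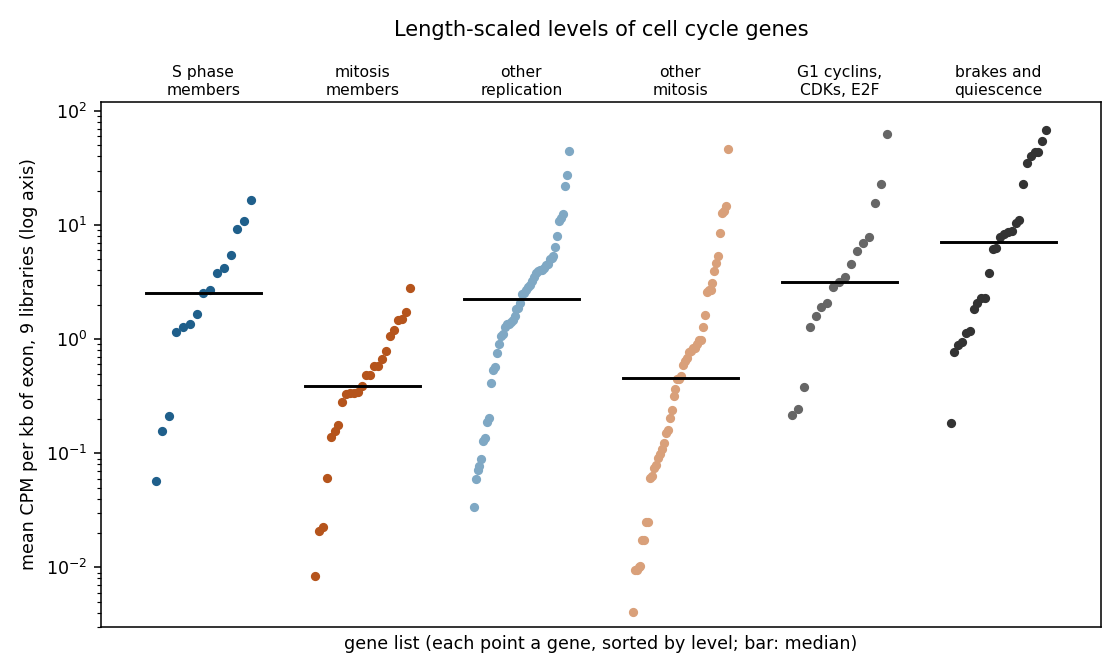
Mean CPM per kb of exon over 9 libraries (log axis) for the members and for 4 further lists of cell cycle genes. Each point is a gene and each bar a median, at 2.52 for the S phase members, 0.389 for the mitotic members, 2.26 and 0.461 for other replication and mitosis genes, 3.17 for G1 control genes and 7.09 for brakes. Both mitotic lists sit lower than the others.

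The mitotic members were also uneven between replicate libraries. In all 9 libraries, 10 of 15 S phase members (66.7%) had over 3 counts, namely Pcna, Mcm2, Mcm3, Mcm4, Mcm6, Mcm7, Rrm1, Tyms, Tk1 and Ccne2, against 64.0% of all genes tested. The same was true of 4 of 25 mitotic members (16%), namely Mki67, Top2a, Kif23 and Prc1. Without the second injured meninges library the counts were 11 and 6. All genes tested had passed a filter on low counts, which was not applied to the members here. At the other extreme, 10 mitotic members and 2 S phase members (E2f1 and Ccne1) had a count of 0 in 5 or more libraries. The same held for 513 of the 15117 genes tested. Over 50% of the summed CPM of 10 mitotic members and 3 S phase members came from a single library, as for 1547 of the 15117 genes tested. The median of the mean levels was 1.85 CPM for mitotic members, 14.2 CPM for S phase members and 12.0 CPM for all genes tested. The part of low counts in this unevenness was not tested.

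The number of mitotic members over 3 counts was 19, 17 and 10 in the uninjured meninges libraries, 12, 8 and 20 in the injured and 12, 17 and 16 in the lung libraries. Libraries of one group thus differed as widely as libraries of different groups, and the library with 8 is the one that stands apart. The third injured meninges library held the highest level of 6 mitotic members (Ccnb2, Cdk1, Kif20a, Cenpf, Ube2c and Prc1), and the second lung library that of 5 (Birc5, Ccna2, Plk1, Cenpe and Cdc20). For S phase members the counts over 3 lay between 11 and 14 in every library.

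**Figure D3:**
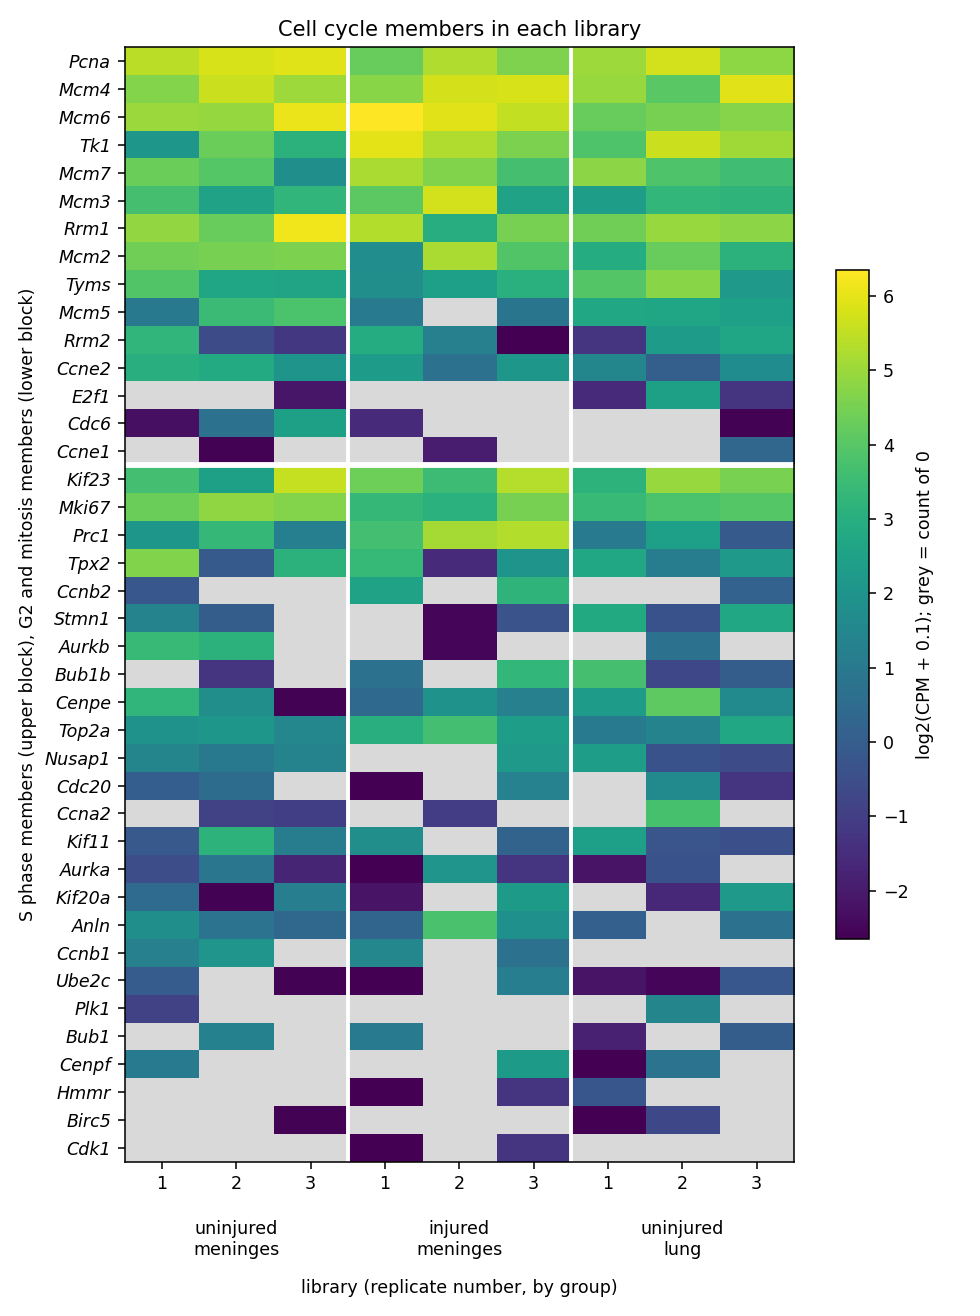
Level of each of the 40 members in each of the 9 libraries as log2(CPM + 0.1), with a count of 0 in grey. Rows are members sorted by CPM per kb within S phase (upper block) and mitosis (lower block), and columns are libraries by group. The grey cells lie mostly in the lower block, where 19 of 25 members were at 0 in at least 1 library against 4 of 15 in the upper. Of all genes tested, which had passed a filter on low counts, 28.9% were at 0 in at least 1 library.

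Summed over the 15 S phase members, the level was 222, 245 and 306 CPM in the uninjured meninges libraries (mean 258 ± 43.4, SD, n = 3). It was 305, 325 and 220 CPM after injury (283 ± 56.0, n = 3) and 183, 261 and 228 CPM in lung (224 ± 39.1, n = 3). The groups overlap. The 25 mitotic members summed to 104, 85.2 and 94.4 CPM in the uninjured meninges (94.6 ± 9.49, n = 3), to 79.6, 89.4 and 160 CPM after injury (110 ± 43.6, n = 3), and to 67.4, 98.2 and 71.4 CPM in lung (79.0 ± 16.8, n = 3). These groups overlap as well, and the wide spread after injury comes from the third library, without which the mean was 84.5 CPM.

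No member passed the test between injured and uninjured meninges. By edgeR's quasi-likelihood test, 0 of the 12 S phase and 0 of the 19 mitotic members with enough counts to be tested passed an adjusted p of 0.05, against 0.192% of all genes tested (29 of 15117). DESeq2 called 0 of the 28 members to which it gave an adjusted p, against 2.86% of all genes, and limma voom 0, against 0.218%. At an unadjusted edgeR p under 0.05 there were 3 of 31 members, Tk1 and Prc1 higher and Aurkb lower, against 8.94% of all genes. The median log2 fold change was -0.19 for S phase members (5 above 0, 7 below) and 0.14 for mitotic members (10 above, 9 below), against -0.01 for all genes. The 6 mitotic members Birc5, Ccna2, Cdk1, Aurka, Plk1 and Hmmr and the 3 S phase members E2f1, Ccne1 and Cdc6 had too few counts for the test.

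The precision limits what could be seen. The median standard error (SE) of the log2 fold change was 0.76 for S phase members and 2.04 for mitotic members, against 0.95 for all genes, so that a change of several fold in a mitotic member would lie within the error. An adjusted p above 0.05 therefore does not show equal levels.

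Library values did not overlap between injured and uninjured meninges for 3 members that were higher after injury (Tk1, Top2a and Prc1), against 5.35% of all genes in that direction. They did not overlap for 1 member that was lower (Pcna), against 6.79% of all genes. These 4 are described first within their roles below.

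Pcna, the sliding clamp that holds DNA polymerases on the template, was counted at 42.9, 56.3 and 59.3 CPM in the uninjured meninges, 18.9, 38.9 and 24.1 CPM after injury and 32.3, 53.8 and 28.4 CPM in lung. Every injured library lay below every uninjured meninges library, and the lung libraries overlapped with both groups. Its log2 fold change after injury was -0.95 (SE 0.46, 95% interval -1.92 to 0.02, edgeR adjusted p = 0.566). Between uninjured meninges and lung it was 0.47 (SE 0.45, edgeR adjusted p = 0.944).

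The 6 subunits of the MCM helicase, which unwinds DNA at the fork, had fitted differences of both signs after injury. Mcm6 was counted at 32.1, 29.9 and 67.6 CPM in the uninjured meninges, 81.4, 61.3 and 45.9 CPM after injury and 19.0, 22.7 and 26.4 CPM in lung. All 6 meningeal libraries lay above all 3 lung libraries, while the meningeal groups overlapped. Its log2 fold change was 0.54 after injury (SE 0.45, interval -0.41 to 1.49, edgeR adjusted p = 0.790) and 0.93 for uninjured meninges against lung (SE 0.45, interval -0.03 to 1.89, edgeR adjusted p = 0.641).

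Mcm2 was even in the uninjured meninges at 21.2, 22.5 and 23.9 CPM, and scattered after injury at 3.29, 36.4 and 15 CPM. In lung it was 7.50, 19.0 and 8.65 CPM, below every uninjured meninges library. The injured value of 36.4 CPM is from the library that stands apart. The log2 fold change was -0.30 after injury (SE 0.78) and 0.94 between the tissues (SE 0.79), with edgeR adjusted p of 0.956 and 0.918.

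Mcm5 was counted at 1.91, 11.2 and 14 CPM in the uninjured meninges, 1.97, 0 and 1.69 CPM after injury and 6.45, 6.11 and 5.25 CPM in lung. The first uninjured library was as low as the injured ones, and lung was the most even group. The log2 fold change after injury was -2.87 (SE 1.48, interval -6.02 to 0.28, edgeR adjusted p = 0.60). Mcm4 was counted at 25.3, 49.1 and 32.6 CPM in the uninjured meninges, 26.6, 54.4 and 55.7 CPM after injury and 31, 16.4 and 61.7 CPM in lung, and its groups overlapped throughout. Mcm7 was at 20.0, 15.7 and 3.49 CPM, then 36.9, 25.1 and 12.9 CPM after injury and 27.5, 14.7 and 11.9 CPM in lung, again with overlap. Mcm3, Mcm4 and Mcm7 had log2 fold changes of 1.43, 0.35 and 0.93 after injury (SE 0.84, 0.53 and 0.74), with intervals that include 0. For Mcm3 the highest level, 53.1 CPM, was that of the second injured library, beside 16.8 and 5.70 CPM in the other injured libraries.

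Among the nucleotide enzymes, Tk1, the thymidine kinase of the salvage route, was counted at 4.19, 19.9 and 8.67 CPM in the uninjured meninges, 63.3, 39.0 and 23.8 CPM after injury and 14.4, 49.6 and 33.8 CPM in lung. Every injured library lay above every uninjured meninges library, and lung overlapped with both. The log2 fold change was 1.94 after injury (SE 0.67, interval 0.51 to 3.37, edgeR adjusted p = 0.447) and -1.58 for uninjured meninges against lung (SE 0.67, interval -2.99 to -0.16, edgeR adjusted p = 0.516). Over the 18 alternative fits the adjusted p after injury ranged from 0.0921 to 0.714.

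Rrm1, the large subunit of ribonucleotide reductase, ran from 18.8 to 71.3 CPM in the uninjured meninges, from 7.72 to 39.7 CPM after injury and from 21.2 to 30.9 CPM in lung. Rrm2, its S phase-limited small subunit, was at 9.47, 0.581 and 0.336 CPM in the uninjured meninges, 7.47, 2.31 and 0.0627 CPM after injury and 0.307, 4.86 and 6.34 CPM in lung. In each group the libraries ranged from under 1 CPM to over 5 CPM, and the fitted differences were small beside their errors (-0.08, SE 1.75, after injury, and -0.15, SE 1.75, between the tissues). Tyms, thymidylate synthase, was at 14.8, 6.32 and 6.05 CPM in the uninjured meninges, 3.35, 5.33 and 8.21 CPM after injury and 15.1, 26.6 and 4.55 CPM in lung. Its groups overlapped, and it had log2 fold changes of -0.69 after injury (SE 0.91) and -0.77 between the tissues (SE 0.91).

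Of the regulators of S phase entry, E2f1, Ccne1 and Cdc6 were too low to be tested and Ccne2 was counted in every library. E2f1, an activating E2F factor, was at 0, 0 and 0.134 CPM in the uninjured meninges, 0 in all 3 injured libraries and 0.246, 5.38 and 0.320 CPM in lung. A single lung library carries it. Ccne1, cyclin E1, was at or below 3 counts in 8 libraries and reached 1.15 CPM in the third lung library, while Ccne2, cyclin E2, had over 3 counts in all 9. Ccne2 was at 8.05, 7.16 and 3.96 CPM in the uninjured meninges, 4.78, 1.59 and 4.20 CPM after injury, and 2.70, 0.957 and 3.20 CPM in lung, where every library lay below the uninjured meninges. Cdc6, which loads the helicase, was at 0.109, 1.55 and 5.44 CPM in the uninjured meninges and at or below 0.239 CPM in the other 6 libraries.

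The third uninjured meninges library, which held the highest Pcna, Mcm5, Rrm1, Cdc6 and Kif23, also held genes of granulocyte precursors. Mpo, Elane and Prtn3 stood there at 38.1, 32.2 and 14.7 CPM, and in the other 8 libraries Prtn3 was at 0, Elane at most at 0.839 and Mpo at most at 4.03 CPM. The 8 neutrophil-lineage markers counted summed to 4.90 to 128 CPM in the uninjured meninges, 0.0795 to 46.5 CPM after injury and 1.33 to 6.28 CPM in lung. The 8 B cell markers summed to 214 to 946 CPM, 33.1 to 137 CPM and 238 to 334 CPM in the same order, highest again in that library. The second injured library, which held the highest Mcm2, Mcm3, Top2a, Aurka and Anln, had the highest sum of the 8 T cell markers. That sum was 245.9 CPM, against 41.4 to 123.5 CPM in the other libraries. The part of these markers in the levels of the members was not tested.

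**Figure D4:**
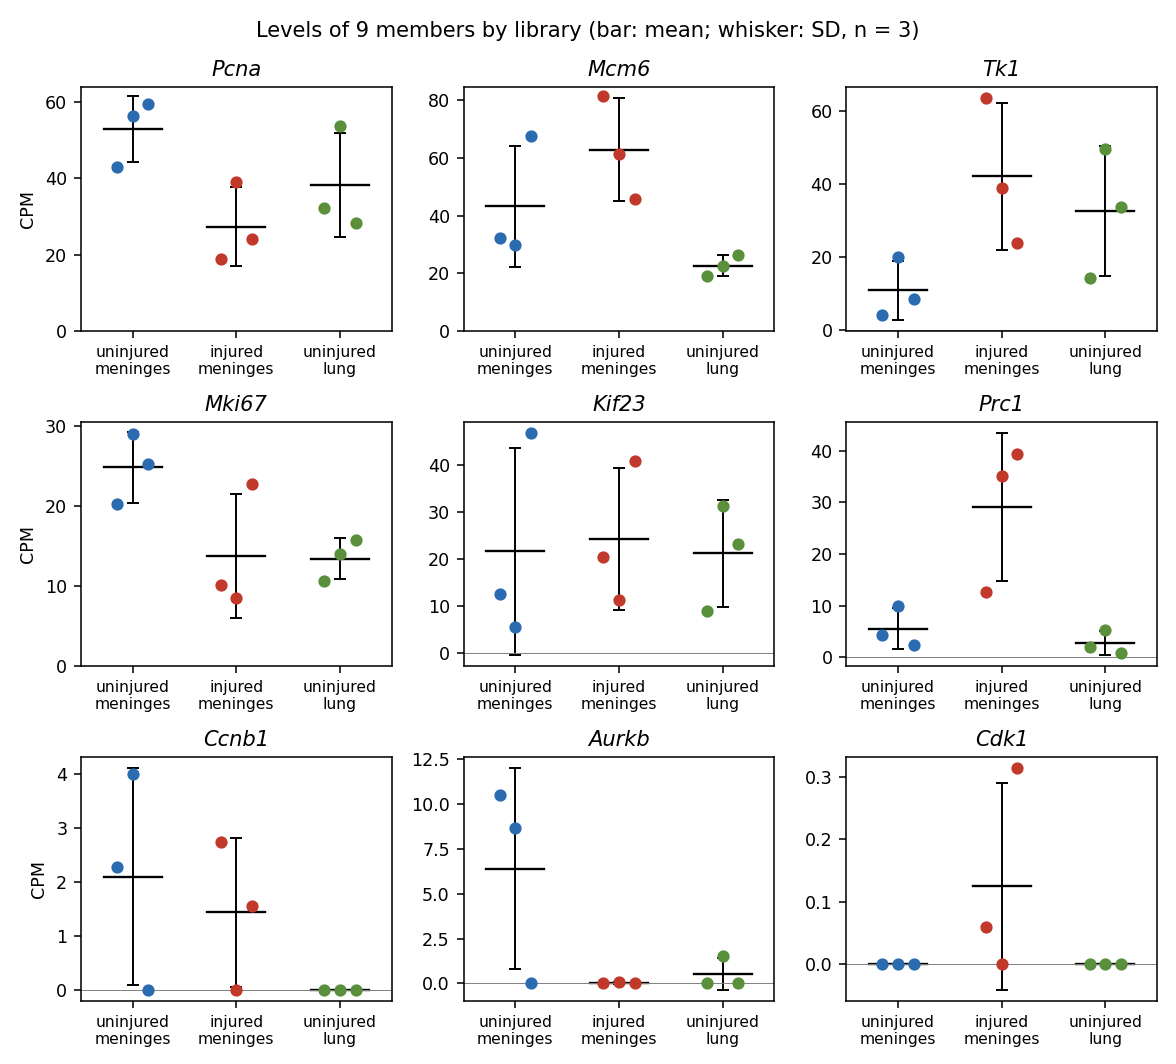
CPM of 9 members in each library, with points for libraries, a bar for the group mean and a whisker for the SD (n = 3). Tk1 and Prc1 lie higher in every injured than in every uninjured meninges library and Pcna lower, Mcm6 is lowest in lung, and Ccnb1, Aurkb and Cdk1 rest on a few libraries.

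Of the general proliferation markers, Mki67 was counted at 20.2, 29.0 and 25.3 CPM in the uninjured meninges, 10.1, 8.51 and 22.7 CPM after injury and 10.6, 14 and 15.7 CPM in lung. The third injured library lay within the uninjured range and the other two below it, and every lung library lay below the uninjured meninges. The log2 fold change was -0.85 after injury (SE 0.65, interval -2.22 to 0.52, edgeR adjusted p = 0.763) and 0.89 between uninjured meninges and lung (SE 0.65, interval -0.49 to 2.26, edgeR adjusted p = 0.881).

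Top2a, the topoisomerase that untangles sister chromosomes, was counted at 3.70, 4.26 and 2.75 CPM in the uninjured meninges, 7.95, 12.6 and 5.20 CPM after injury and 1.97, 2.5 and 6.41 CPM in lung. Every injured library lay above every uninjured meninges library, and 1 lung library lay within the injured range. The log2 fold change was 1.26 (SE 1.16, interval -1.20 to 3.72, edgeR adjusted p = 0.824), so that the most used markers of proliferation, Pcna, Mki67 and Top2a, had fitted differences of both signs and none passed the test.

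Prc1, which bundles microtubules of the central spindle, was counted at 4.25, 9.94 and 2.28 CPM in the uninjured meninges, 12.7, 35.1 and 39.3 CPM after injury and 2.03, 5.30 and 0.833 CPM in lung. Every injured library lay above the other 6. The log2 fold change after injury was 2.40 (SE 0.93, interval 0.42 to 4.38, edgeR adjusted p = 0.492), with an adjusted p of 0.0811 to 0.720 over the alternative fits. Kif23, its partner at the central spindle, was at 12.6, 5.42 and 46.7 CPM, then 20.5, 11.3 and 40.9 CPM after injury and 8.97, 31.3 and 23.2 CPM in lung, and overlapped between all groups (0.17, SE 0.78, after injury).

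The cyclins and the kinase that start mitosis were at 0 in 5 or more libraries each. Cdk1, the mitotic kinase, had 0 counts in 7 of 9 libraries and 1 and 5 counts in the first and the third injured library. Ccnb1, cyclin B1, was at 2.29, 4.0 and 0 CPM in the uninjured meninges, 2.75, 0 and 1.57 CPM after injury and 0 in all 3 lung libraries. Against a limit of 3 counts in each lung library, its mean in the uninjured meninges was at least 10.5-fold higher, and the test across all genes gave an edgeR adjusted p of 0.434. Ccnb2, cyclin B2, was at 0.762, 0 and 0 CPM in the uninjured meninges, 5.68, 0 and 9.15 CPM after injury and 0, 0 and 1.03 CPM in lung. Ccna2, cyclin A2, had 177 counts in the second lung library and at most 7 in any other, so that 1 library carried nearly all of its reads.

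The spindle checkpoint and kinase genes were as uneven. Aurkb, Aurora kinase B, was at 10.5, 8.65 and 0 CPM in the uninjured meninges, 0, 0.0795 and 0 CPM after injury and 0, 1.55 and 0 CPM in lung. The injured libraries held 1 count together against 327 in the uninjured, a ratio of 317 per total count (95% interval 56.4 to 12540, exact binomial, counting error only), and one uninjured library was itself at 0. The edgeR adjusted p was 0.486. Bub1b, a checkpoint kinase, was at 0, 0.323 and 0 CPM in the uninjured meninges, 1.55, 0 and 9.71 CPM after injury and 13.0, 0.516 and 0.897 CPM in lung. Each group mean outside the uninjured meninges rests mainly on 1 library. Plk1, Polo-like kinase 1, had 8 counts in 1 uninjured meninges library, 36 in 1 lung library and 0 in the other 7.

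Among the remaining spindle and exit genes, Tpx2, which activates Aurora A, was at 24.7, 0.839 and 8.60 CPM in the uninjured meninges, 10.2, 0.239 and 3.95 CPM after injury and 6.45, 2.14 and 4.48 CPM in lung. The uninjured meninges ranged more widely than the other groups and overlapped with both, and the second injured library was the lowest. Anln, the contractile ring protein anillin, was at 3.43, 1.61 and 1.21 CPM, then 1.14, 13.4 and 3.51 CPM after injury and 0.983, 0 and 1.54 CPM in lung, its highest value being from the library that stands apart. Cdc20 and Ube2c, of the anaphase-promoting pathway, had group means between 0.760 and 1.11 CPM and between 0.313 and 0.751 CPM. The motors Kif11 and Kif20a, the kinetochore proteins Cenpe and Cenpf, the checkpoint kinase Bub1, the spindle protein Nusap1 and the tubulin regulator Stmn1 had log2 fold changes after injury between -2.11 and 1.21 with SE between 1.44 and 2.58.

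**Figure D5:**
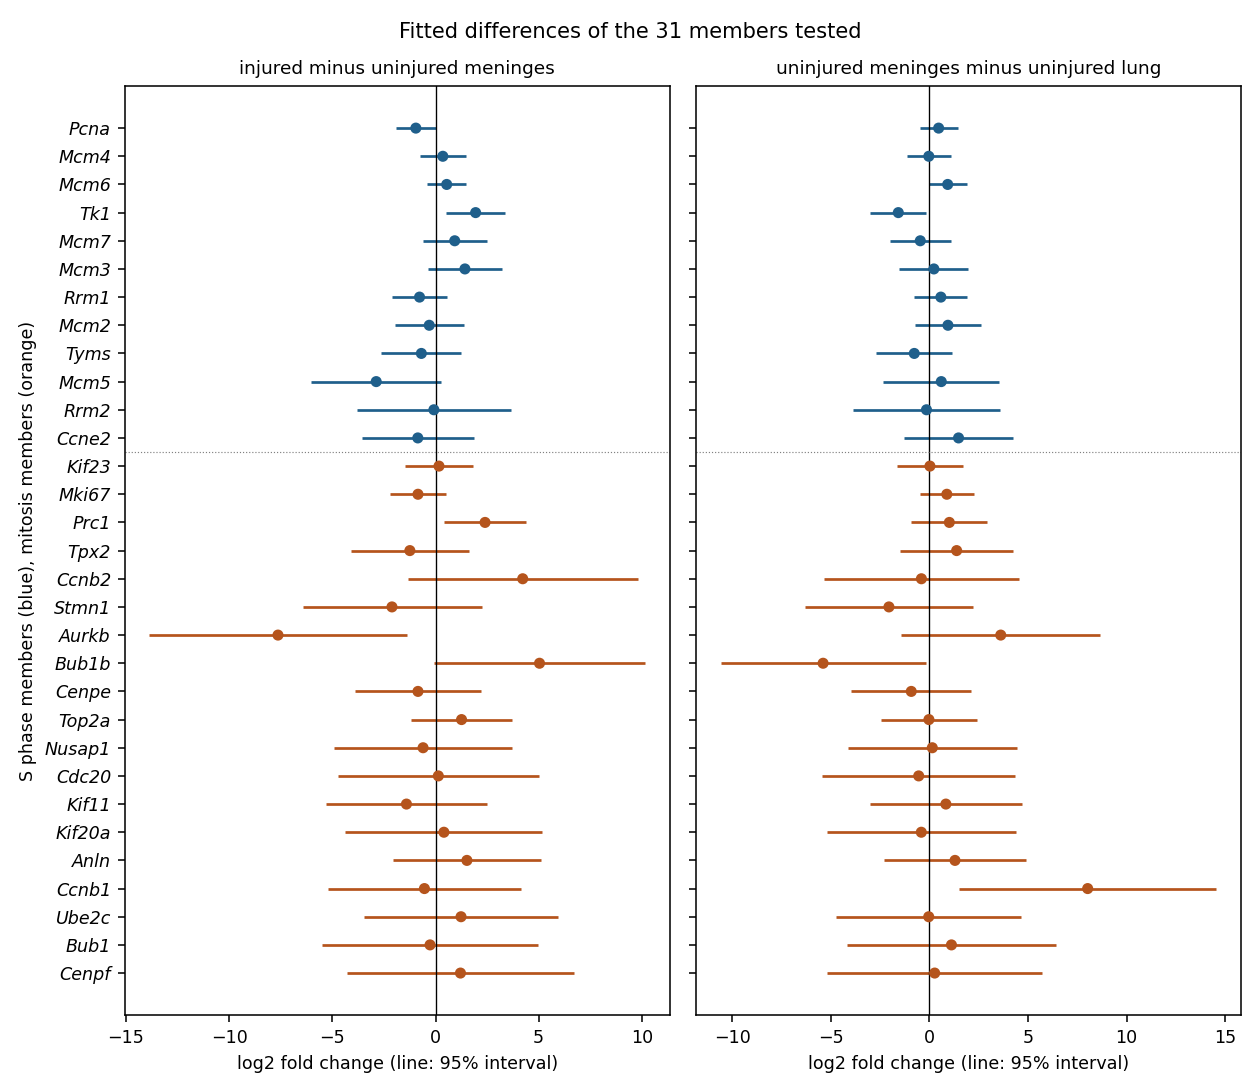
Fitted log2 fold changes of the 31 members tested, injured minus uninjured meninges on the left and uninjured meninges minus lung on the right, with 95% intervals as lines. S phase members are blue and mitotic members orange; 3 intervals exclude 0 on each side (Tk1, Prc1 and Aurkb on the left, Tk1, Ccnb1 and Bub1b on the right), before adjustment over all genes.

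Between uninjured meninges and uninjured lung no member passed the test either. The edgeR count was 0 of 12 S phase and 0 of 19 mitotic members, against 0.635% of all genes (96 of 15117). DESeq2 called 0 members against 3.52% of all genes, and limma voom 0 against 1.57%. At an unadjusted edgeR p under 0.05 there were 3 of 31 members, Ccnb1 higher and Tk1 and Bub1b lower in meninges, against 7.98% of all genes. The median log2 difference was 0.35 for S phase members (7 above 0, 5 below) and 0.15 for mitotic members (11 above, 8 below), against 0.00 for all genes.

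Library values did not overlap between the tissues for 4 members that were higher in the uninjured meninges (Mcm2, Mcm6, Ccne2 and Mki67), against 7.63% of all genes in that direction. They did not overlap for 1 member that was lower (Bub1b), against 10.6% of all genes. The smallest edgeR adjusted p among the members was 0.434 (Ccnb1) in this comparison and 0.447 (Tk1) after injury. Of the markers of other cells, 7 lung epithelial genes summed to 645 to 2202 CPM in the lung libraries and 3.76 to 11.1 CPM in the uninjured meninges libraries. Mean sums were also higher in lung for endothelial (372.5 against 91.7 CPM), fibroblast (160.7 against 42.5 CPM) and myeloid markers (297.3 against 58.8 CPM). The second lung library held 34.4 CPM of the myeloid markers. NK and mast cell markers were also higher in lung. B cell, T cell, neutrophil, erythroid and neural markers had higher mean sums in the uninjured meninges. The part of all these markers in the levels of the members was not tested.

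Other genes of the same pathways, from lists of textbook components, gave the same contrast of level. Of 50 further replication genes in the table, 36 (72.0%) exceeded 1 CPM per kb, and of 50 further mitosis genes 14 (28%) did. By edgeR, 0 of 44 tested replication genes and 0 of 31 tested mitosis genes differed in either comparison. After injury 4 replication genes were higher and 0 lower at an unadjusted p under 0.05, and 1 mitosis gene was higher and 2 lower. Of all 15117 genes tested, 693 were higher and 659 lower (8.94% in either direction). Between the tissues the counts were 0 and 0 for replication genes and 1 and 1 for mitosis genes. Of all genes tested, 364 were higher and 843 lower in meninges (7.98% in either direction). DESeq2, which called 2.86% of all genes after injury and 3.52% between the tissues, called Pola1 and Cenpa higher and Sgol2a lower after injury and Sgol1 higher in meninges than in lung, and limma voom called none of these genes.

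Pola1, the catalytic subunit of the polymerase that primes DNA synthesis, stood at 19.7, 14.3 and 14.6 CPM in the uninjured meninges, 24.8, 71.0 and 58.0 CPM after injury and 14.4, 20.9 and 20.6 CPM in lung. Every injured library lay above the other 6. Its log2 fold change was 1.66 (SE 0.53), with an adjusted p of 0.376 by edgeR and 0.0159 by DESeq2. Cenpa, the centromeric histone H3 variant, stood at 6.75, 18.7 and 6.99 CPM in the uninjured meninges, 68.2, 73.5 and 17.4 CPM after injury and 26.6, 27.2 and 34.5 CPM in lung. One injured library lay within the uninjured range, and the log2 fold change was 2.30 (SE 0.63, adjusted p = 0.256 by edgeR and 0.0137 by DESeq2).

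The shugoshin gene Sgol1, which protects centromeric cohesion, was at 13.6, 18.6 and 23.7 CPM in the uninjured meninges, 30.1, 4.06 and 0.689 CPM after injury and 1.11, 0 and 0.256 CPM in lung. Every uninjured meninges library lay above every lung library, with a log2 difference of 5.32 (SE 1.52, adjusted p = 0.180 by edgeR and 0.00289 by DESeq2).

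G1 control genes and the brakes on the cycle were counted at higher levels than the mitotic members. Averaged over all libraries, the median was 3.17 CPM per kb for 17 G1 genes and 7.09 CPM per kb for 26 brakes. By group the medians were 3.17, 3.21 and 2.29 CPM per kb for G1 genes, in uninjured meninges, injured meninges and lung. For brakes they were 3.12, 5.51 and 6.36 CPM per kb in the same order, each below the median of the averaged levels. Ccnd2, cyclin D2, was at 529 to 744 CPM in the uninjured meninges, 527 to 684 CPM after injury and 481 to 636 CPM in lung, and its partner kinase Cdk6 had group means of 319, 330 and 309 CPM. Rb1, the retinoblastoma protein, had group means of 419, 271 and 539 CPM, and its relative Rbl2 356, 351 and 283 CPM. Neither list held a gene called by edgeR in either comparison. At an unadjusted p under 0.05, 2 of 17 G1 genes were higher and 3 lower after injury, and 0 of 25 tested brakes were higher and 2 lower. Of all 15117 genes tested, 693 were higher and 659 lower (8.94% in either direction). Between the tissues the counts were 0 and 1 for G1 genes and 1 and 4 for brakes. Of all genes tested, 364 were higher and 843 lower in meninges (7.98% in either direction). Skp2, the ubiquitin ligase subunit that removes p27, was at 11.5, 18.5 and 25.5 CPM in the uninjured meninges and 5.85, 1.83 and 5.20 CPM after injury, without overlap (log2 fold change -2.10, SE 0.80, adjusted p = 0.478 by edgeR and 0.0178 by DESeq2).

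The brakes with the smallest p-values between the tissues were Gadd45b and Cdkn1a, both stress-induced. Gadd45b was at 2.99, 0.516 and 4.70 CPM in the uninjured meninges, 0, 0 and 1.63 CPM after injury and 66.2, 137 and 113 CPM in lung. Cdkn1a, the CDK inhibitor p21, was at 6.75, 10.6 and 2.08 CPM, then 31.2, 0.875 and 18.6 CPM after injury and 69.9, 74.2 and 120 CPM in lung. For both, every lung library lay above all 6 meningeal libraries. The log2 difference of uninjured meninges from lung was -5.26 for Gadd45b (SE 1.17, adjusted p = 0.0701 by edgeR, 0.0372 by DESeq2 and 0.0177 by limma voom) and -3.77 for Cdkn1a (SE 0.91, adjusted p = 0.0894, 0.00210 and 0.0405 in the same order). Neither passed the edgeR test used here for all genes.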

How the data were processed

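RNA was amplified from sorted cells before library preparation, per the labels' protocols. The authors deposited raw read counts per gene, and the submitters' processing notes name FastQC, STAR, HTSeq and the mm9 build. Their versions, the annotation, filters and the strand setting are not given in the sources used here. Overlapping and antisense genes could therefore not be told apart, and amplified reads are not independent molecules. Libraries held 13407277 to 18253462 counts, and 25.3 to 35.3% of them were mitochondrial. Depth and the spread between libraries of a group (common coefficient of variation 0.91 in the edgeR fit) both limit the precision.

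Genes passing edgeR's filterByExpr (15117 of 23466) were fitted with edgeR 4.0.16 (R 4.3.3; TMM, robust quasi-likelihood F test, Benjamini-Hochberg adjustment, threshold 0.05), all 9 libraries in 1 fit with a mean per group. The SE was taken from F, as the size of the log2 fold change over its root. Alternatives were DESeq2 1.42.0, limma voom 3.58.1, other scalings and filters, the 6 libraries compared alone, a replicate block and leaving out each library. The smallest chi-square per degree of freedom between replicate libraries was 62.8, so none was a copy of another. The procedure was also tested on simulated data, with changes placed only in genes of higher mean level than most mitotic members. That simulation therefore does not bear on the low mitotic members. Exon lengths came from GENCODE M21.

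The members and lists were chosen with earlier results of these data known. The genes named are well-known members, those with the smallest p-values in each list and the most abundant of each further list. Also named are members whose groups do not overlap and whose higher group has at least 5 CPM in each library. Pcna, Mcm2, Mki67 and Top2a, among others, were named whatever their values. The remaining members, and the granulocyte genes, were named after their values were seen.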

Additional observations from a re-analysis of the deposited data

How the results depend on the processing

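Across all 18 alternatives 0 of the 31 members tested were called in either comparison, and the smallest adjusted p of a member was 0.0811 after injury and 0.162 between the tissues. The sign of the fitted difference was the same in every fit for 19 members after injury and 16 between the tissues; among them were Pcna, Tk1, Mcm6, Mki67 and Prc1 in both. The genes called over all genes were 435 with DESeq2, 78 with no filter on low counts and 12 from the 6 libraries compared, against 29, after injury. Between the tissues they were 535, 193 and 226, and 238 with limma voom, against 96. Leaving out 1 library gave 18 to 27 after injury and 51 to 196 between the tissues. Of the other cell cycle genes DESeq2 called 4 after injury (Pola1, Cenpa, Sgol2a and Skp2), and leaving out 1 library called 0 to 1 (Gadd45b, without the third injured library). Between the tissues 3 were called with DESeq2, 2 with limma voom, 1 without a filter, 3 from 6 libraries, 1 with the replicate block and 0 to 1 when 1 library was left out (Gadd45b without the first or the third injured library, Cdkn1a without the second), against 0. Summed CPM without mitochondrial genes were 365, 401 and 322 for S phase and 134, 155 and 113 for mitosis, in the order uninjured meninges, injured meninges and lung. The median log2 fold change over the alternatives ran from -0.46 to 0.01 for S phase and -1.12 to 0.33 for mitotic members after injury, and from 0.16 to 0.49 and -0.26 to 0.67 between the tissues. The counts of members over 3 counts and over 1 CPM per kb without the second injured library were chosen after seeing the data.

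Replicate numbers are shared between groups. Deviations from the group means correlated at -0.039 to 0.10 between same-numbered libraries and at -0.126 to 0.101 between differently numbered ones. Same-numbered libraries were therefore not treated as pairs. With the replicate block 43 genes were called after injury and 136 between the tissues, against 29 and 96 without it, with 0 members among them.

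Among the 31 members tested and the further genes chosen by the naming rule, the fitted log2 values that changed sign are given here; none was a call, and the cause was not tested. Other genes of the further lists were not included. With limma voom they were Bub1 0.12, Kif20a -1.09, Cenpe 0.45, Cdc20 -0.77 after injury and Mcm4 0.068, Top2a 0.15, Bub1 -0.62, Kif23 -0.33, Kif20a 1.02, Cenpf -0.303, Cdc20 0.21 between the tissues. With the replicate block they were Rrm2 0.27, Kif20a -1.63, Ube2c -0.056, Cdc20 -0.85, A730008H23Rik (the table's name for Hjurp) -0.004 after injury and Mcm4 0.025, Top2a 0.024, Ccnb2 0.17, Kif23 -0.42, Kif20a 0.72, Cenpf -0.42, Ube2c 0.092, Cdc20 1.02 between the tissues. With library totals alone they were A730008H23Rik -0.008, Cdk6 -0.031 after injury and Mcm4 0.063, Top2a 0.08, Ube2c 0.013, Slbp 0.026 between the tissues. Leaving out 1 library gave, after injury, Mcm2 -1.29 to 0.204, Rrm2 -1.54 to 2.82, Ccnb1 -1.41 to 0.33, Bub1 -6.62 to 6.37, Kif11 -2.87 to 0.012, Kif23 -0.44 to 1.42, Kif20a -4.098 to 1.199, Tpx2 -2.44 to 0.031, Cenpe -1.43 to 0.48, Cenpf -6.397 to 7.58, Ube2c -3.03 to 4.198, Cdc20 -4.28 to 0.83, Orc3 -0.19 to 0.74, A730008H23Rik -0.28 to 0.301, E2f7 -9.44 to 1.02, E2f2 -2.25 to 1.03, Ccnd2 -0.14 to 0.12, Cdk6 -0.11 to 0.19, Tob2 -1.07 to 0.23, Rbl2 -0.081 to 0.088. Between the tissues it gave Mcm3 -0.081 to 0.49, Mcm4 -0.4 to 0.59, Rrm1 -0.14 to 0.92, Rrm2 -3.04 to 0.42, Top2a -0.32 to 0.67, Ccnb2 -5.41 to 5.04, Bub1 -5.51 to 2.98, Kif11 -0.58 to 2.52, Kif23 -1.23 to 0.49, Kif20a -1.198 to 3.36, Cenpe -2.25 to 0.14, Cenpf -6.102 to 4.12, Ube2c -2.99 to 1.596, Cdc20 -1.24 to 2.18, Nusap1 -0.297 to 1.89, Slbp -0.39 to 0.18, Tacc3 -0.19 to 1.104, Skp2 -0.024 to 0.54, Cdk6 -0.12 to 0.41, Gadd45g -1.94 to 2.38, Tob1 -0.28 to 0.075.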
